A study of Rattus norvegicus with 17 samples.

Results

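The smooth muscle contractile genes examined here were Acta2, Tagln, Cnn1, Myh11, Mylk, Smtn, Actg2, Cald1, Tpm1 and Lmod1, followed in cultured gubernacula of male fetal rats exposed to insulin-like 3 (Insl3). All probe sets that the platform annotation gives to 1 of these 10 genes and to no other gene were taken, which made 21 of the 31099 on the array and 10 of the 14218 genes so named, with 7 for Tpm1, 3 for Cald1, 2 each for Myh11, Mylk and Smtn and 1 for each of the other genes. The gubernaculum is the fetal ligament that ties the testis to the lower abdominal wall, and Insl3 is a peptide hormone of fetal Leydig cells that drives its growth during testis descent. Long Evans tissue was taken on gestational day 17, and each biological replicate was a pool of 2 gubernaculum bulbs, cut from the abdominal wall and kept on filter inserts in medium with charcoal-stripped serum. Every culture, controls included, spent 24 h without added hormone. A further 24 h followed without hormone in 6 control replicates, with 10 nM Insl3 in 3 replicates and with 100 nM Insl3 in 6 replicates. Another 2 replicates at 10 nM were set aside by the submitters for low yields of labelled cRNA and their place in a principal component analysis, and they enter only an alternative that is named where used and values given apart. RNA came from whole bulbs, so a smaller share of a cell type and less RNA per cell cannot be told apart in any value below.

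Smooth muscle contracts when calcium and calmodulin activate myosin light chain kinase (Mylk), which phosphorylates the light chains of smooth muscle myosin (heavy chain Myh11) and lets it pull on actin filaments. The filaments hold smooth muscle alpha-actin (Acta2) or gamma-actin (Actg2) and carry the regulators caldesmon (Cald1), calponin (Cnn1), transgelin (Tagln), tropomyosin (Tpm1), smoothelin (Smtn) and leiomodin (Lmod1). Acta2 and Tagln appear early in the lineage and also in myofibroblasts, Cald1 and Tpm1 are expressed in many cell types, and Cnn1, Myh11, Smtn and Lmod1 are markers of more mature smooth muscle. The gubernacular bulb is a mesenchymal core with developing striated cremaster muscle around it.

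Values are GCRMA log2 expression values per probe set, running between 2.11, where background-level probe sets pile up, and 16.9. Array medians lay between 4.29 and 4.47. A probe set was tested if it exceeded 2.28, the 40th percentile of all values, in at least 3 of the 15 arrays, which 18938 probe sets and 17 of the 21 smooth muscle probe sets did. Once group means were removed, the largest component of the arrays, with 27.3% of what variance was left, set replicates 1, 2 and 6 against replicates 3, 4 and 5 among both the controls and the 100 nM cultures. No label explains the split, and results that differ between these replicate sets are given for each set where they are described in detail. The sets were drawn from these same values, so a fit with the set as a term lowers the remaining spread by construction. Its adjusted p can be too small and is given as a description only. A probe set had a median SD between replicates of 0.202 in controls, 0.107 at 10 nM and 0.180 at 100 nM.

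Several markers of mature smooth muscle were at or near background in these bulbs. Lmod1 lay between 2.11 and 2.19 on every kept array and did not pass the filter, Actg2 lay between 2.57 and 3.16, and Cnn1 exceeded 3 on only 2 arrays, 100 nM replicates 4 (3.06) and 6 (3.79). Outside the 10 genes, the smooth muscle potassium channel subunit gene Kcnmb1 and the pericyte receptor gene Notch3 averaged 2.11 in controls. By contrast Acta2, Tagln, Mylk, Smtn, the main Cald1 and Tpm1 probe sets and 1 of the 2 Myh11 probe sets were well above the filter value on every kept array. Striated muscle genes were bright, with control means of 14.85 for Myog, 14.80 for Acta1 and 14.81 for Myh3. Of the mature smooth muscle markers, Myh11 and Smtn were thus measured above the filter and Cnn1, Lmod1 and Kcnmb1 were weak or at background. The cells that gave the signals were not identified here.

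**Figure D1:**
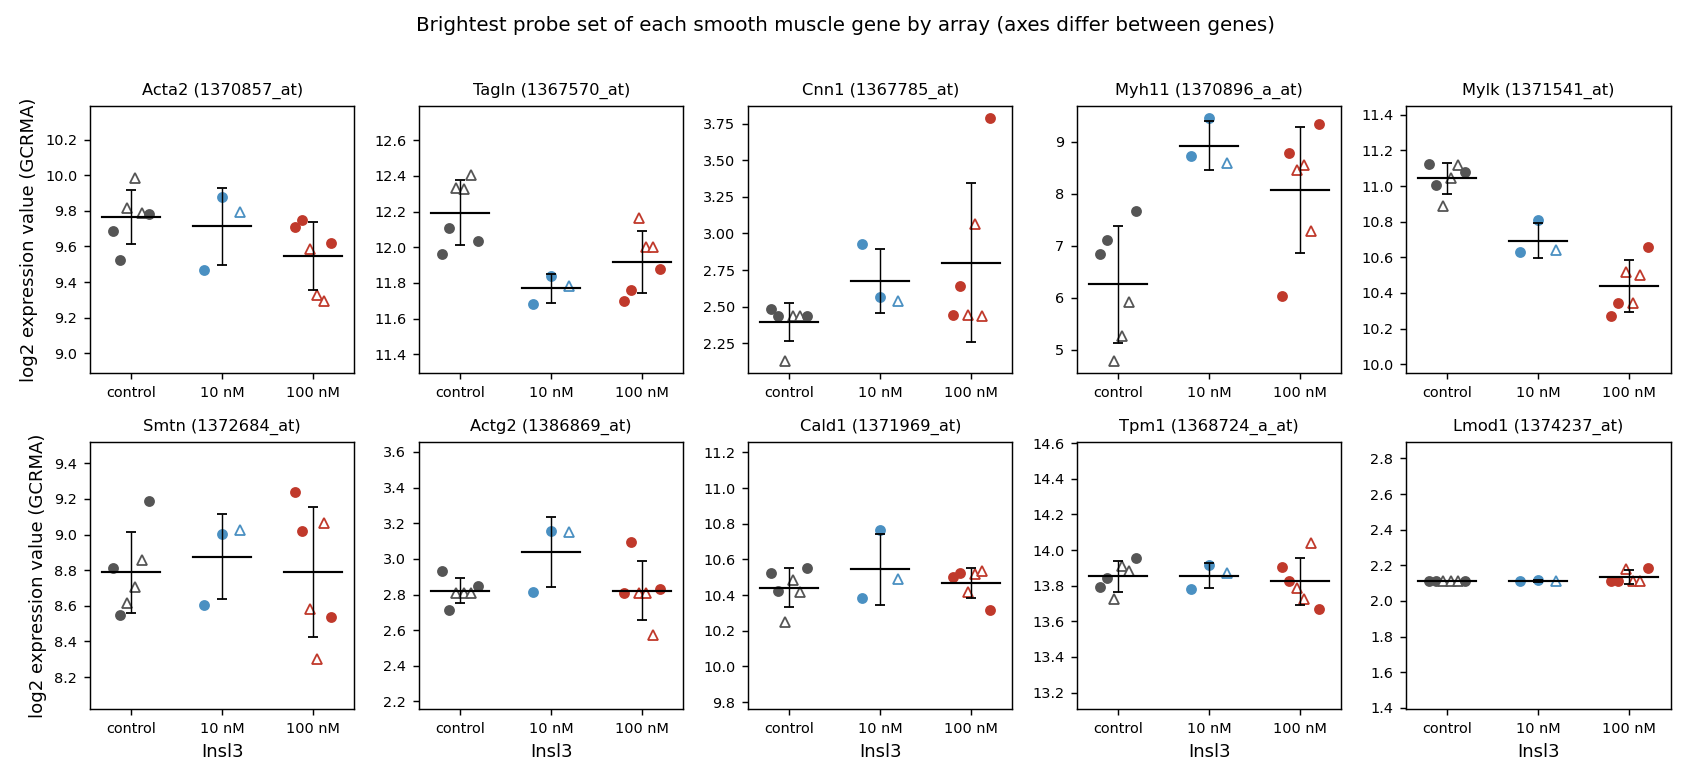
Log2 expression value (y axis, GCRMA, separate scale for each gene) of the brightest probe set of each of the 10 smooth muscle genes in control, 10 nM and 100 nM Insl3 arrays. Points are arrays (filled circles, replicates 1, 2 and 6; open triangles, replicates 3, 4 and 5), and bars are group means with SD. All 6 arrays at 100 nM lay below all 6 controls for Mylk, all 3 arrays at 10 nM lay above all controls for Myh11, and Lmod1 stayed near 2.11.

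The main probe set of the kinase gene Mylk was lower at both doses. For Myh11, Tagln and Cald1, 1 probe set each was called at 10 nM only. After 100 nM Insl3, 0 of the 17 tested smooth muscle probe sets rose, 1 fell and 16 did not pass the test (limma, Benjamini-Hochberg adjusted p under 0.05). Over all tested probe sets, 10.9% were called in this comparison, 6.51% higher and 4.39% lower, so the smooth muscle count is near this background. After 10 nM Insl3, 1 of the 17 rose, 3 fell and 13 did not pass, against 10.6% called among all tested probe sets, 4.88% higher and 5.70% lower. Between the doses, 100 nM against 10 nM, 1 of the 17 was called higher and 0 lower, against 1.43% called among all, 1.24% higher and 0.195% lower. The median change over the 17 probe sets was -0.11 at 100 nM and -0.05 at 10 nM on the log2 scale, against -0.000266 and 0.0343 over all tested probe sets. At an unadjusted limma p under 0.05 the smooth muscle counts were 2 higher and 3 lower at 100 nM (13.8% higher and 12.2% lower among all), 3 higher and 6 lower at 10 nM (13.5% and 10.3%), and 1 higher and 2 lower between the doses (6.58% and 5.69%). One probe set in these counts, Tpm1 1370513_at, passed the filter only through controls. The comparisons of 100 nM and of 10 nM share the same 6 controls. Each limma p rests on 1 spread per probe set, estimated over the 3 groups together.

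**Figure D2:**
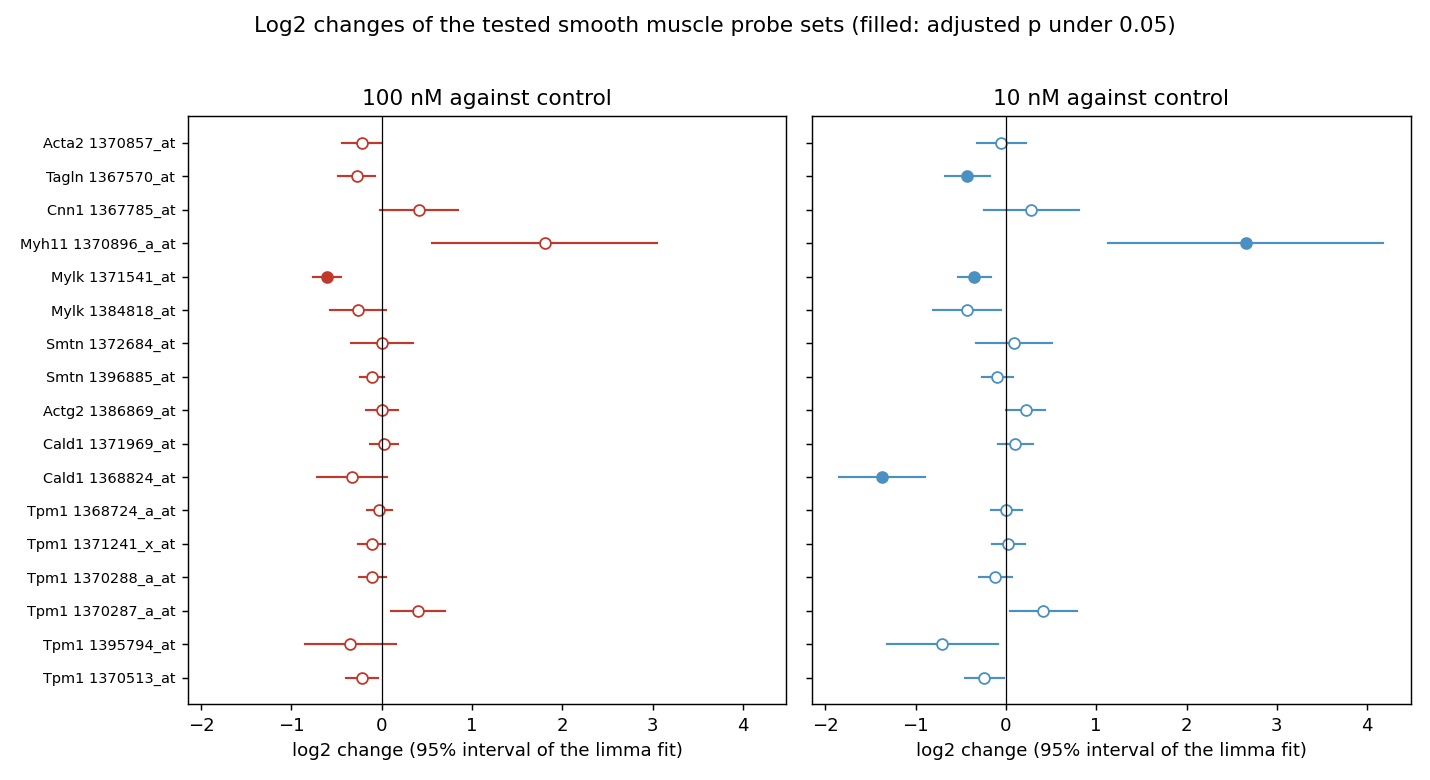
Log2 change (x axis) of the 17 tested smooth muscle probe sets (y axis) for 100 nM against control (left) and 10 nM against control (right). Points are limma estimates with 95% intervals, filled where the adjusted p is under 0.05: Mylk at 100 nM, and Tagln, Myh11, Mylk and Cald1 1368824_at at 10 nM. The interval of Myh11 is the widest in both panels.

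Mylk encodes the kinase that switches smooth muscle myosin on. Its main probe set (1371541_at) had a lowest, median and highest value of 10.89, 11.06 and 11.12 in controls. It was at 10.63, 10.81 and 10.64 in the 3 arrays at 10 nM, and its lowest, median and highest values at 100 nM were 10.27, 10.42 and 10.66. Every Insl3 array lay below every control, and the arrays at 100 nM and 10 nM overlapped only through 100 nM replicate 6. At 100 nM Mylk averaged 10.44 ± 0.15, against 11.04 ± 0.09 in controls (SD, n = 6 each), a change of -0.60 ± 0.07 log2 units (SE) or 1.52-fold lower, with a limma adjusted p of 0.000121. The exact permutation test over the 12 arrays gave p = 0.00216, 2-sided and unadjusted, the smallest that its 924 regroupings allow. The fall was as large within each set of replicates, -0.65 in replicates 1, 2 and 6 and -0.56 in replicates 3, 4 and 5, with no overlap in either. Mylk alone among the 17 probe sets had arrays at 100 nM that did not overlap with controls, where 4.96% of all tested probe sets did not overlap, 3.48% with the 100 nM arrays above and 1.48% with them below. Leaving out any 1 of the 15 arrays kept the call, with adjusted p between 7.79e-05 and 0.000524, and a fit of replicates 1, 2 and 6 alone did not reach it (0.0664).

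At 10 nM Mylk averaged 10.69 ± 0.10 (SD, n = 3), 1.27-fold lower than in controls (-0.35 ± 0.09 log2 units, SE; limma adjusted p = 0.0189). That call was lost without 10 nM replicate 1 (adjusted p = 0.0902) or 3 (0.0973), and in replicates 1, 2 and 6 alone (0.285). The change of 100 nM against 10 nM was -0.26, with a 95% interval of -0.44 to -0.07 for this single probe set and a limma adjusted p of 0.195, so a difference between the doses was not called. A second, weak Mylk probe set (1384818_at) averaged 2.70 ± 0.30 in controls, 2.27 ± 0.14 at 10 nM and 2.44 ± 0.25 at 100 nM, and was not called at 10 nM (adjusted p = 0.147) or at 100 nM (0.271). Its difference between 100 nM and control was 0.00800 in replicates 1, 2 and 6, with overlap, and -0.53 in replicates 3, 4 and 5, without overlap.

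Myh11, the heavy chain of smooth muscle myosin, was higher at 10 nM and, in controls and at 100 nM, had the largest SD among the tested smooth muscle probe sets. The probe set that passed the filter (1370896_a_at) had a lowest, median and highest value of 4.79, 6.38 and 7.66 in controls. It was at 8.71, 9.45 and 8.59 in the 3 arrays at 10 nM, and at a lowest, median and highest value of 6.03, 8.50 and 9.34 at 100 nM. All 3 arrays at 10 nM and 4 of the 6 at 100 nM lay above every control, while 100 nM replicates 1 (6.03) and 5 (7.27) lay within the control range. At 10 nM the mean was 8.92 ± 0.47 (SD, n = 3), against 6.26 ± 1.12 in controls (SD, n = 6), a change of 2.65 ± 0.71 log2 units (SE), 6.29-fold higher with a limma adjusted p of 0.0279. At 100 nM the mean was 8.07 ± 1.21 (SD, n = 6), 1.81 ± 0.58 log2 units (SE) or 3.50-fold above controls, and did not pass (limma adjusted p = 0.0619). The change of 100 nM against 10 nM was -0.85, with a 95% interval of -2.37 to 0.68, and was not called (limma adjusted p = 0.707). The other Myh11 probe set (1381219_at) stayed at 2.11 on every kept array and was not tested.

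The Myh11 result depended on single arrays and on the set of replicates. The call at 10 nM was lost in 6 of the 15 fits without 1 array, namely without control replicate 3 (adjusted p = 0.0519), 4 (0.0555) or 5 (0.0526), or without 10 nM replicate 1 (0.0764), 2 (0.121) or 3 (0.0776). It was also lost without the filter (0.0693), with the set-aside arrays included (0.0777) and in replicates 1, 2 and 6 alone (0.448). At 100 nM it passed without control replicate 6 (adjusted p = 0.0317) or without 100 nM replicate 1 (0.0143). Replicates 3, 4 and 5 alone also passed (0.0297). With the replicate set as a term it passed too (0.0445), but that p can be too small, as the sets came from these values. In replicates 3, 4 and 5 Myh11 averaged 8.09 at 100 nM and 5.32 in controls, a difference of 2.77 with no overlap. In replicates 1, 2 and 6 it averaged 8.05 at 100 nM and 7.20 in controls, a difference of 0.85 with overlap. The 2 sets were thus alike at 100 nM and apart in controls, and the difference between the sets was not tested.

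**Figure D3:**
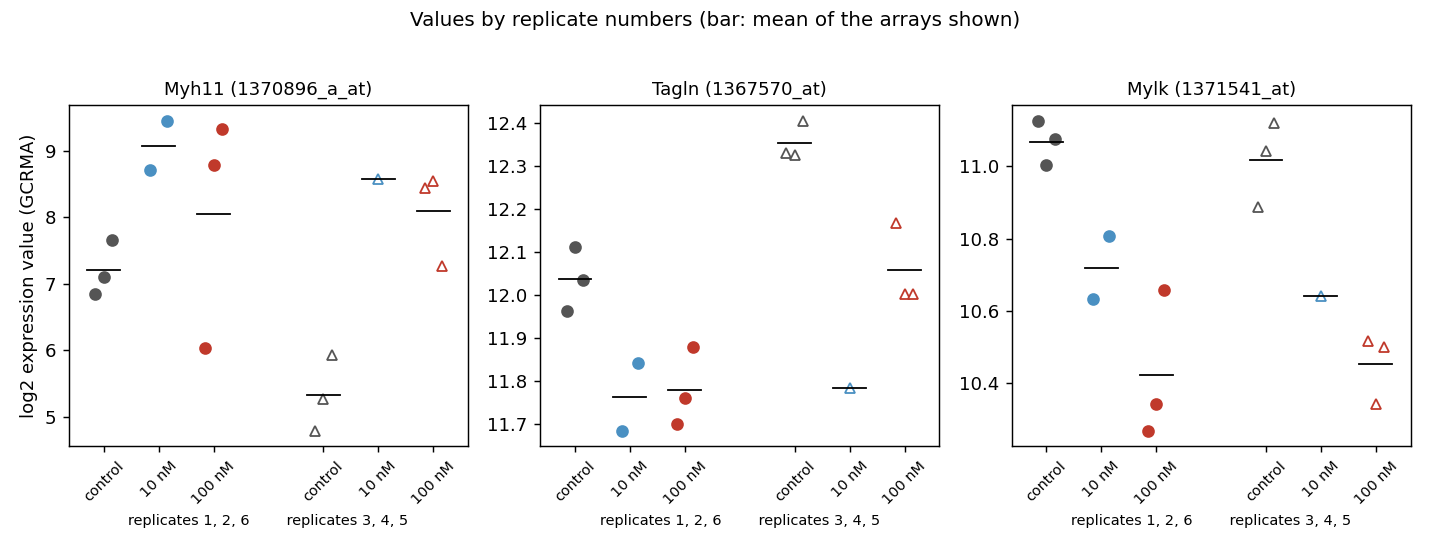
Log2 expression value (y axis, GCRMA, separate scale for each gene) of Myh11, Tagln and Mylk in control, 10 nM and 100 nM arrays, with replicates 1, 2 and 6 on the left (filled circles) and replicates 3, 4 and 5 on the right (open triangles) of each panel. Bars are means of the arrays shown, without error bars. The Myh11 difference between 100 nM and control was 0.85 in the left set and 2.77 in the right set, while those of Tagln (-0.26 and -0.30) and Mylk (-0.65 and -0.56) were close.

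Tagln encodes transgelin, a calponin-family protein that binds actin filaments. In controls its lowest, median and highest values were 11.96, 12.22 and 12.40. The 3 arrays at 10 nM were at 11.68, 11.84 and 11.78, and the lowest, median and highest values at 100 nM were 11.70, 11.94 and 12.17. The arrays at 10 nM lay below every control, and those at 100 nM overlapped with the lower controls. At 10 nM Tagln averaged 11.77 ± 0.08 (SD, n = 3), against 12.19 ± 0.18 in controls (SD, n = 6), and was 1.34-fold lower (-0.43 ± 0.12 log2 units, SE; limma adjusted p = 0.0299). The call was lost without control replicate 3 (0.0591), 4 (0.0595) or 5 (0.0576), or without 10 nM replicate 1 (0.127), 2 (0.0630) or 3 (0.0982), and also without the filter (0.0561) and in replicates 1, 2 and 6 alone (0.221). At 100 nM the mean of 11.92 ± 0.17 was 0.28 ± 0.09 log2 units below controls and did not pass (-0.28, limma adjusted p = 0.0785). Within both sets of replicates the 100 nM arrays lay below the controls of the same set, with differences of -0.26 and -0.30. With the set as a term in the fit the limma adjusted p was 0.0113. That p can be too small, as the sets came from these values. Tagln also passed at 100 nM without control replicate 1 (0.0470) or 100 nM replicate 3 (0.0410).

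The smooth muscle actins were not called at either dose on the 15 kept arrays. Acta2, the alpha-actin used most often as a marker of smooth muscle and myofibroblasts, had a lowest, median and highest value of 9.52, 9.79 and 9.99 in controls. The 3 arrays at 10 nM were at 9.47, 9.88 and 9.79, and the lowest, median and highest values at 100 nM were 9.29, 9.60 and 9.75. The groups overlapped throughout, and the changes were -0.22 ± 0.10 at 100 nM (limma adjusted p = 0.198) and -0.05 ± 0.13 at 10 nM (0.851). The 95% intervals of those changes for this single probe set ran between -0.44 and 0.00279 at 100 nM and between -0.32 and 0.22 at 10 nM. The Acta2 difference between 100 nM and control was 0.03 in replicates 1, 2 and 6, with overlap, and -0.46 in replicates 3, 4 and 5, without overlap, and this contrast between the sets was not tested. Actg2, the gamma-actin of visceral smooth muscle, averaged 2.82 ± 0.07 in controls, 3.04 ± 0.20 at 10 nM and 2.82 ± 0.17 at 100 nM, which are values close to background (adjusted p = 0.203 at 10 nM and 1 at 100 nM), although with the set-aside arrays included it passed at 10 nM (0.35, 0.0436). Another 5 probe sets were annotated to both Acta2 and the cardiac actin gene Actc1 and were left out. The brightest of them lay between 15.28 and 15.53 on all kept arrays.

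Caldesmon, which binds actin and tropomyosin and restrains myosin, was measured by 3 probe sets of Cald1 that did not behave alike. The probe set 1368824_at had a lowest, median and highest value of 9.69, 10.03 and 10.50 in controls. It was at 8.63, 8.87 and 8.61 in the 3 arrays at 10 nM, and at a lowest, median and highest value of 9.10, 9.93 and 10.10 at 100 nM. The arrays at 10 nM lay below every array of the other groups. At 10 nM its mean of 8.70 ± 0.14 (SD, n = 3), against 10.07 ± 0.28 in controls (SD, n = 6), was 2.58-fold lower (-1.37 ± 0.22 log2 units, SE; limma adjusted p = 0.00148). All 15 fits without 1 array kept that call, with an adjusted p of at most 0.0137. At 100 nM the same probe set was not called against controls (-0.33 ± 0.18, limma adjusted p = 0.266), with differences of -0.14 in replicates 1, 2 and 6 and -0.53 in replicates 3, 4 and 5. It was the only tested smooth muscle probe set called between the doses, 9.74 ± 0.42 at 100 nM against 8.70 ± 0.14 at 10 nM, or 2.05-fold higher (1.04 ± 0.22, limma adjusted p = 0.0389). That call was lost in 10 of the 15 fits without 1 array, those without control replicate 3, 4 or 5, any of the 3 arrays at 10 nM, or 100 nM replicate 1, 2, 3 or 6, with an adjusted p between 0.0549 and 0.246. It was lost as well without the filter (0.103), with only the compared groups in the fit (0.126), with the set-aside arrays (0.126), with the cRNA yield as a covariate (0.0637) and in replicates 1, 2 and 6 alone (0.0936).

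The second tested Cald1 probe set, 1371969_at, showed no such drop. It was at 10.38, 10.77 and 10.49 in the 3 arrays at 10 nM, within or above the control range of 10.25 to 10.55, and its change was 0.10 ± 0.09 (limma adjusted p = 0.522). The third, 1368823_at, stayed at 2.11 on every kept array and was not tested. Cald1 gives rise to smooth muscle and non-muscle forms of caldesmon by alternative splicing. Which of them each probe set reads was not determined here, so the change at 10 nM is reported for 1368824_at and not for the gene as a whole.

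**Figure D4:**
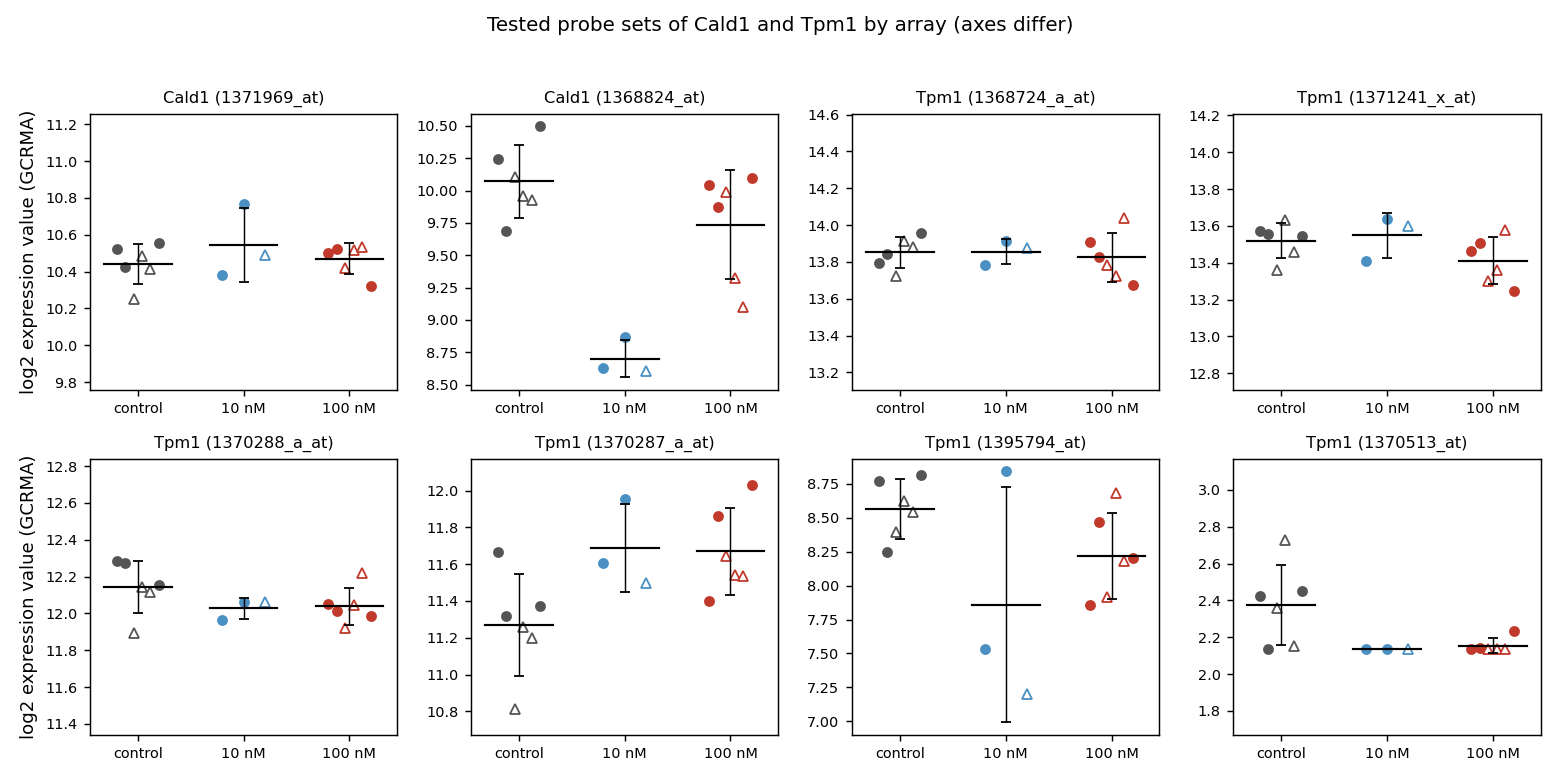
Log2 expression value (y axis, GCRMA, separate scale for each panel) of the 2 tested Cald1 and the 6 tested Tpm1 probe sets in control, 10 nM and 100 nM arrays. Points are arrays (filled circles, replicates 1, 2 and 6; open triangles, replicates 3, 4 and 5), and bars are group means with SD. Cald1 1368824_at lay between 8.61 and 8.87 at 10 nM, below all other arrays, while Cald1 1371969_at and the Tpm1 probe sets overlapped between the groups.

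Tropomyosin 1, which lies along actin filaments in smooth, striated and non-muscle cells, had 7 probe sets, of which 6 were tested and 0 were called in the 3 comparisons. The brightest, 1368724_a_at, averaged 13.85 ± 0.08 in controls, 13.86 ± 0.07 at 10 nM and 13.83 ± 0.13 at 100 nM. The 95% interval of its change at 100 nM was -0.17 to 0.11. Probe set 1370287_a_at was higher in mean at both doses without being called. It averaged 11.27 ± 0.28 in controls, 11.69 ± 0.24 at 10 nM and 11.67 ± 0.23 at 100 nM, with changes of 0.41 ± 0.17 at 10 nM (limma adjusted p = 0.154) and 0.40 ± 0.14 at 100 nM (0.0867). Over the alternatives other than fits without 1 array, its lowest limma adjusted p at 10 nM was 0.047. This probe set passed at 100 nM without control replicate 1 (adjusted p = 0.0415) or with the replicate set as a term (0.0411). The latter p can be too small, as the sets came from these values. The difference at 100 nM was 0.31 in replicates 1, 2 and 6, with overlap, and 0.48 in replicates 3, 4 and 5, without overlap. Probe set 1370288_a_at, not called, had differences of -0.22, without overlap, and 0.01 in the same sets. Probe set 1395794_at was at 7.54, 8.84 and 7.20 in the 3 arrays at 10 nM, against a lowest, median and highest value of 8.24, 8.58 and 8.81 in controls. Replicate 2 at 10 nM thus lay above every control and replicates 1 and 3 below, and the change of -0.70 was not called (limma adjusted p = 0.148) but was -1.20 (0.00474) without 10 nM replicate 2. The weak probe set 1370513_at exceeded the filter value in 4 of 6 controls, 0 of 3 arrays at 10 nM and 0 of 6 at 100 nM, and 1371240_at did not pass the filter.

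The remaining 2 tested genes, Smtn and Cnn1, were not called in any of the 3 comparisons. Smtn, whose product smoothelin binds actin in contractile smooth muscle, averaged 8.79 ± 0.23 in controls, 8.88 ± 0.24 at 10 nM and 8.79 ± 0.37 at 100 nM by its main probe set (1372684_at). Its change at 100 nM was 0.00187, with a 95% interval of -0.34 to 0.35. Calponin 1, an actin-binding inhibitor of myosin, averaged 2.39 ± 0.13 in controls, 2.68 ± 0.22 at 10 nM and 2.80 ± 0.54 at 100 nM. All 3 arrays at 10 nM lay above the Cnn1 values of the controls. In that comparison 5 of the 17 smooth muscle probe sets did not overlap, Myh11 and Cnn1 above and Tagln, Mylk and Cald1 1368824_at below, against 17.0% of all tested probe sets, 9.15% above and 7.81% below. Between 100 nM and 10 nM, 1 of the 17 did not overlap, Cald1 1368824_at, against 7.85% of all, 3.84% above and 4.00% below. The Cnn1 values are close to background, and its limma adjusted p was 0.217 at 100 nM and 0.534 at 10 nM.

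Start-site windows of the genes were read from RefSeq on the rat assembly GRCr8, 250 bases before to 50 after the annotated start, because serum response factor drives many smooth muscle genes through CArG boxes there. Of the 10 genes 7 had a window, 8 windows in all, and Tagln, Myh11 and Lmod1 had none. The Actg2 window (chr4:117593990-117594289, minus strand) lies inside the annotated gene, whose outer end is at 117604379. The Mylk window likewise lies inside its gene (outer end 79535450). Both Cald1 windows, beginning at 64233006 and 64343465, lie inside that gene (outer end 64232906). The Tpm1 window ends at 76543665 and the gene at 76543661, so nearly all of it lies inside the gene. The stretches before the outer starts of Actg2, Mylk, Cald1 and Tpm1 were thus not searched, apart from the last bases at Tpm1. Matches given below for Cald1 and Tpm1 lie inside the annotated genes. The CArG box, searched as its consensus on both strands and as the only motif, was found exactly in 0 of the 8 windows and in 1.64% of all 33469 windows. With 1 letter changed it was found in 21.3% of all windows. Among the 8 it was found at 2 places in Acta2 (starting 134 and 84 bases before the start), at 2 in Tpm1 (195 and 55), at 1 in Smtn (110) and at 1 in 1 of the 2 Cald1 windows (245). Such a pair of matches occurred in 3.80% of all windows. The windows of Acta2 and Tpm1, neither of them called by its brightest probe set, and of Mylk, called at both doses, are shown to set a window with such matches beside one without. Capitals mark the matches with 1 letter changed, all 3 windows lie on the minus strand, and they span chr1:241172454-241172753, chr8:76543366-76543665 and chr11:79498525-79498824.
Acta2: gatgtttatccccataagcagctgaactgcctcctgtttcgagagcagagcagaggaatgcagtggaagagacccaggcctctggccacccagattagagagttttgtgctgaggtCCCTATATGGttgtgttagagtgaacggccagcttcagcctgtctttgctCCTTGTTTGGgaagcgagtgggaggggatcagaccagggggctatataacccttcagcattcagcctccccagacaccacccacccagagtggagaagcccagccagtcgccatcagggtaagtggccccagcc
Tpm1: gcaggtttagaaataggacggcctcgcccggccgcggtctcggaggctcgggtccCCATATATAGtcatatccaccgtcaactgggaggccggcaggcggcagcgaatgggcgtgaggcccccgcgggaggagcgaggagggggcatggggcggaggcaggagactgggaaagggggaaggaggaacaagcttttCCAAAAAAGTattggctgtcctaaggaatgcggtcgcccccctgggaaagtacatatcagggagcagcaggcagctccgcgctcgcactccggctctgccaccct
Mylk: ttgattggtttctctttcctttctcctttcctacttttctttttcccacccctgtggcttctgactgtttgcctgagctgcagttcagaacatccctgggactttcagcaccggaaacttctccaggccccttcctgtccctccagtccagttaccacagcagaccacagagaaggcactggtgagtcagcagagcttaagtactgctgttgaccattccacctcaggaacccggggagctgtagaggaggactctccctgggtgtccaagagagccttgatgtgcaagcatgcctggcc
The Mylk window holds no match, which says only that these letters are not in this window. Mylk is known to use several start sites, and the others were not searched.

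Beyond the 10 genes, single genes of the contractile machinery were called. Over all tested probe sets 10.9% were called at 100 nM and 10.6% at 10 nM. The list counts here and in the following paragraphs are to be read beside these shares. Of 12 transcriptional regulators of the smooth muscle programme 10 were tested, with 0 higher and 1 lower at 100 nM (4 and 1 at an unadjusted limma p under 0.05, median 0.15) and 1 higher and 1 lower at 10 nM (2 and 1, median 0.09). Klf5, a factor linked to proliferating smooth muscle, fell at 100 nM by 0.45 ± 0.10 log2 units (-0.45, limma adjusted p = 0.0106), and 1 of its other 2 tested probe sets was also called (-0.53, adjusted p = 0.00258). Mef2c, a muscle transcription factor, fell by 0.96 ± 0.21 at 10 nM by 1 probe set (-0.96, adjusted p = 0.00818), although its other probe set gave 0.07 without a call. The coactivator gene Mrtfa rose at 10 nM by 0.27 ± 0.07 (adjusted p = 0.0240), a call lost without 10 nM replicate 1 (0.0607) or 2 (0.152). Serum response factor (Srf) gave 0.17 ± 0.11 at 100 nM (adjusted p = 0.360), and its partner myocardin (Myocd) averaged 6.78 ± 0.80 at 100 nM and 5.90 ± 0.33 in controls, also without passing (0.0825).

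In the list of genes for myosin and its phosphorylation, 11 of 16 genes were tested, with 0 called at 100 nM (1 higher and 2 lower at an unadjusted limma p under 0.05) and 1 lower at 10 nM. The regulatory light chain gene Myl9, the substrate of Mylk, gave -0.12 ± 0.15 at 100 nM (limma adjusted p = 0.685) and 0.08 ± 0.19 at 10 nM (0.840). Ppp1r12a, the targeting subunit of the phosphatase that reverses Mylk, was -0.72 ± 0.18 at 10 nM (adjusted p = 0.0179). Of its other 3 probe sets 1 was called (-1.43, adjusted p = 0.00584), while 2 gave 0.05 each without a call, and the call was lost without 10 nM replicate 1 (0.0597) or 3 (0.111). As with Cald1, the probe sets of this gene differed from each other at 10 nM.

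Among 9 tested genes for other actins, tropomyosins, calponins and transgelins, 1 rose and 0 fell at 100 nM, and 1 rose and 1 fell at 10 nM. Tpm4, a cytoskeletal tropomyosin, rose by 0.22 ± 0.05 at 100 nM (limma adjusted p = 0.0141) and 0.28 ± 0.06 at 10 nM (0.00806). The other Tpm4 probe set gave 0.07 and 0.09 without a call, and the call at 10 nM was lost without 10 nM replicate 2 (0.0538). Tpm3 was -0.27 ± 0.08 at 10 nM by its brightest probe set (adjusted p = 0.0376; up to 0.221 in 6 of the 15 fits without 1 array), and 2 further Tpm3 probe sets were called lower (-0.53, 0.0162, and -0.48, 0.0397), but another was called higher (0.36, 0.0222), so no direction is given for the gene as a whole. Cytoplasmic gamma-actin (Actg1) stayed within 0.03 log2 units of controls at both doses, and Tpm2 gave -0.11 at 100 nM and 0.05 at 10 nM without passing.

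The genes that anchor the filaments and handle calcium gave single calls. Of 15 tested dense plaque genes 0 were called at 100 nM (2 higher and 1 lower at an unadjusted limma p under 0.05) and 1 rose at 10 nM, the integrin beta 1 gene Itgb1, by 0.52 ± 0.07 (limma adjusted p = 0.000690). Its other probe set gave 0.44 without a call (0.0860). With the set-aside arrays included, the Itgb1 change at 10 nM was 0.16 and not called (limma adjusted p = 0.580). Itgb1 was lower at 100 nM than at 10 nM (-0.34 ± 0.07, adjusted p = 0.0412), a call lost in 10 of the 15 fits without 1 array, those without control replicate 3, 4 or 5, 10 nM replicate 2 or 3, or any 100 nM replicate but 5 (up to 0.249). The vinculin gene Vcl gave -0.20 at 100 nM (0.0978) and the filamin gene Flna 0.33 (0.240). Of 8 tested membrane and calcium genes 1 rose at each dose, the calcium pump gene Atp2a2, by 0.53 ± 0.07 at 100 nM (adjusted p = 0.000466) and 0.42 ± 0.09 at 10 nM (0.00756). None of its 3 other tested probe sets was called at either dose. The Atp2a2 call at 10 nM was lost with the set-aside arrays (limma adjusted p = 0.193). The potassium channel gene Kcnma1 gave -0.16 at 100 nM (0.268).

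Markers of some other cell types that a bulb could hold were called in the same comparisons, and those of others were not. Of 6 tested pericyte markers 2 rose and 0 fell at 100 nM, Anpep (0.70 ± 0.12, limma adjusted p = 0.00200) and Kcnj8 (0.84 ± 0.19, 0.0126), and 1 rose at 10 nM, Abcc9 (1.31 ± 0.33, 0.0199; lost without 10 nM replicate 2, 0.108, or 3, 0.0593). The other tested Abcc9 probe set gave 0.22 at 10 nM without a call. The pericyte markers Pdgfrb (-0.01) and Rgs5 (0.45) did not pass at 100 nM, and Notch3 was at background. The summed level of the 6 markers, as log2 of the summed linear values, ranged over 10.72 to 11.15 in controls, 11.22 to 11.34 at 10 nM and 11.19 to 11.60 at 100 nM. The arrays of both doses thus lay above every control, as the Myh11 arrays at 10 nM did. Most of that sum comes from Anpep, which averaged 10.05 in controls, 10.47 at 10 nM (adjusted p = 0.0824, not called) and 10.75 at 100 nM, and from Pdgfrb, which gave 0.10 at 10 nM, so the sum does not show the class as a whole. The part of pericytes in the Myh11 result was not tested.

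Of 8 tested fibroblast markers 1 rose and 2 fell at 100 nM. Thy1 rose by 1.34 ± 0.19 (limma adjusted p = 0.000734), while the proteoglycan genes Lum (-0.35 ± 0.07, 0.00777) and Dcn (-0.19 ± 0.05, 0.0423) fell. The Dcn call was lost in 11 of the 15 fits without 1 array, all but those without control replicate 3 or 6 or 100 nM replicate 1 or 6 (up to 0.0909). At 10 nM Thy1 rose (0.89, 0.0284) and Dcn fell (-0.24, 0.0343), calls lost without any of the 3 arrays at 10 nM and without control replicate 3 or 4 (Thy1, up to 0.127) or 1, 2 or 5 (Dcn, up to 0.125). The collagen genes Col1a1 (0.06) and Col1a2 (0.02) were not called at 100 nM. The summed fibroblast level ranged over 17.53 to 17.71 in controls, 17.54 to 17.57 at 10 nM and 17.51 to 17.66 at 100 nM. Among 14 tested skeletal and cardiac muscle genes 1 fell at 100 nM and 0 were called at 10 nM (0 higher and 1 lower at an unadjusted limma p under 0.05). The actin gene Acta1 gave 0.02 at 100 nM. The gene that fell was Myod1, a determinant of the skeletal muscle lineage (-0.32 ± 0.08, 0.0238), and its call did not survive leaving out 100 nM replicate 2 (0.0539) or 6 (0.0518). The summed level of the 14 ranged over 17.12 to 17.34 in controls, 17.21 to 17.32 at 10 nM and 16.94 to 17.47 at 100 nM, so the groups overlapped. None of the 7 tested mesothelium and epithelium markers was called at either dose by limma, 0 also at an unadjusted p under 0.05, with Msln at -0.06 at 100 nM and 1.06 at 10 nM, and their summed level reached 13.12 in controls, 12.49 at 10 nM and 12.64 at 100 nM.

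The endothelial genes Cldn5 and Kdr were called higher at both doses, at which Mylk fell, and blood cell genes were called lower at 100 nM. Of 5 tested endothelial markers 2 rose and 0 fell at each dose, Cldn5 by 2.83 ± 0.27 at 100 nM (limma adjusted p = 2.07e-05) and 1.60 ± 0.33 at 10 nM (0.00648), and Kdr by 0.94 ± 0.14 (0.000939) and 0.78 ± 0.17 (0.00984). Pecam1 (0.00843 at 100 nM, 0.22 at 10 nM) and Emcn (-0.42 and -0.63) were not called. Pecam1 averaged 2.95 in controls and Tie1, also not called, 2.22, both near background. Tek (2.13 in controls, not tested) and Vwf were at background. The summed level, carried by Cldn5 and Kdr, ranged over 10.65 to 11.18 in controls, 11.58 to 12.42 at 10 nM and 12.43 to 13.16 at 100 nM. All 7 tested erythroid markers fell at 100 nM, with a median of -2.85, among them Slc4a1 (-3.15), Klf1 (-3.05), Nfe2 (-2.95) and Hemgn (-2.85), and 0 were called at 10 nM (0 also unadjusted), with summed levels of 11.74 to 14.07 in controls, 11.24 to 13.05 at 10 nM and 8.60 to 12.25 at 100 nM. The Hemgn call (limma adjusted p = 0.0408) was lost in 11 of the 15 fits without 1 array, all but those without control replicate 1, 2 or 6 or 100 nM replicate 3 (up to 0.0869), without the filter (0.0946), with only the compared groups in the fit (0.0719) and with the set-aside arrays (0.0529). Of 7 tested leukocyte markers 5 fell at 100 nM and 0 were called at 10 nM (0 also unadjusted), with summed levels of 12.46 to 12.89 in controls, 12.17 to 12.66 at 10 nM and 11.74 to 12.39 at 100 nM. They included Cd52 (-2.81), Cd68 (-0.71), Ptprc (-0.65) and Mrc1 (-0.63). The Cd68 call (0.0380) was lost in 9 of the 15 fits without 1 array, those without control replicate 1, 2, 4, 5 or 6 or 100 nM replicate 2, 3, 4 or 6 (up to 0.0820), and the Mrc1 call (0.0237) in 5, those without control replicate 3, 4 or 5 or 100 nM replicate 2 or 6 (up to 0.0538). Both were also lost without the filter (0.0852 and 0.0548) and with the set-aside arrays (0.152 and 0.167). The part of these cell types in the Mylk and Tagln results was not tested.

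Across arrays the 9 tested genes did not move as a block. Over the 136 pairs of tested smooth muscle probe sets, Pearson's r of the deviations from the group means over 15 arrays ran between -0.56 and 0.80, with a median of 0.11. The highest value between probe sets of different genes was 0.78, for Cald1 1371969_at with Tpm1 1371241_x_at, and Myh11 reached 0.77 with Tpm1 1370287_a_at and 0.56 with Mylk. Acta2 and Tagln, often used together as markers, gave 0.03. By the same measure the genes most like Acta2 were Cbl (0.83) and Cyb561a3 (0.82), those most like Mylk were Zfp646 (0.88) and 6430548M08Rikl (0.85), and those most like Tagln were Fancl (0.94) and Fbxl17l1 (0.91). Myh11 was most like Mast4 (0.92) and Emx2 (0.91), and Cald1 1371969_at most like Map4k4 (0.91). These correlations are descriptions over arrays that share the division into replicate sets, and the genes named are the highest of all those tested.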

How the data were processed

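Rat gubernaculum RNA was measured on 17 Affymetrix arrays, 1 per biological replicate, from 150 ng of total RNA labelled with a 3' in vitro transcription kit, per the labels' protocols. An RNA integrity number of 10 is given for every array but 10 nM replicates 1 and 2, where none is given. RNA integrity could thus not be checked for 2 of the 3 arrays behind the calls at 10 nM. The authors deposited log2 values, 1 per probe set and array, from GCRMA (per the submitters' processing notes, without a version). GCRMA corrects background, normalizes arrays and summarises probes, so weak signals are compressed towards 2.11. The base of the logarithm is read from the range of the values, since no label gives it. Between 30.5% and 33.6% of the probe sets of an array lay within 0.001 of that floor.

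The 57 manufacturer's control probe sets were left out. Of the probe sets, 20832 carried a single gene symbol and 436 carried several, and 9831 were not listed. The 3 groups were fitted together with limma 3.58.1 in R 4.3.3 (lmFit and eBayes, no trend, not robust) on the 15 arrays the submitters kept, with Benjamini-Hochberg adjustment over 18938 probe sets and a threshold of 0.05. The script was tested on simulated data. Named members are all of their probe sets. From the other lists come called genes (at most 4 a list by size, shown by the brightest probe set) and the first 2 of each list, where the array holds them. Markers at background and others that carry a list's summed level are named besides, chosen after their values were seen. The genes of highest within-group correlation are given for Acta2 and for each member with a call, by its brightest probe set, which for Cald1 is not the called one. The 10 genes and the lists were chosen with earlier results of these data known. Alternatives changed the filter, normalization, variance model, arrays, covariates, replicate block and the way probe sets were combined.

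Replicate numbers were checked as pairs. Same-numbered arrays correlated in their deviations from the group means at r between -0.07 and 0.20, so the numbers were not used to pair arrays. For 100 nM against control r lay between 0.0068 and 0.199. The replicate sets also hold the same numbers in both of these groups, so structure shared by number is not excluded. The labels call the replicates biological and do not say whether litters were shared, so p-values measure the spread between pooled pairs of bulbs. The number of arrays limits the precision.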

Additional observations from a re-analysis of the deposited data

Results flagged for a closer look

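Among 34 groups of smooth muscle probe set values with 4 to 10 arrays, 4 held an array far from the rest of its group. The rule flags about 1 in 20 by chance where values vary continuously. In each of the 4 groups some arrays shared a value, such as 2.4356 in Cnn1 controls and 2.137 for Tpm1 1370513_at at 100 nM. A single departure is then flagged readily, so the count cannot be compared with that rate. Cnn1 was at 2.13 in control replicate 3, against 2.44 in the nearest control. The weak Mylk probe set 1384818_at was at 2.92 in 100 nM replicate 6, against 2.43 in the nearest array of that group. Smtn 1396885_at was at 2.985 in 100 nM replicate 3 (nearest 3.12), and Tpm1 1370513_at was at 2.24 in 100 nM replicate 6 (nearest 2.14). All 4 values lie within about 1 log2 unit of background.

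The 2 arrays at 10 nM that the submitters set aside showed signals above every control for 2 of the 17 tested probe sets. Actg2 was at 3.23 in the lower of both, against 2.93 in the highest control, and Tpm1 1395794_at was at 9.37 in the lower of both, against 8.81 in the highest control. Both arrays lay below every control for another 7 probe sets, and for 8 they did neither.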

How the results depend on the processing

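Among the calls of smooth muscle genes against control, Cald1 1368824_at at 10 nM was kept under every alternative run and Mylk at 100 nM under every one but replicates 1, 2 and 6 alone, while Mylk, Myh11 and Tagln at 10 nM were each lost under at least 2, besides fits without 1 array. Without 1 array, 100 nM against control gave 0 to 1 smooth muscle probe sets higher and 1 to 2 lower (898 to 1461 and 527 to 1155 over all tested), 10 nM against control 0 to 1 higher and 1 to 3 lower (406 to 1224 and 614 to 1271), and 100 nM against 10 nM 0 to 1 higher and 0 to 0 lower (2 to 553 and 1 to 66). Without the filter the counts were 0 higher at 10 nM against control, 0 higher between the doses (15 and 7 over all) and 498 lower over all at 100 nM. With only the 2 compared groups in the fit, 0 were higher between the doses (3 and 0 over all). With all 17 arrays, 100 nM against control gave 700 and 308 over all, and 100 nM against 10 nM gave 0 higher (140 and 56 over all). At 10 nM that fit lost the calls of Itgb1, Atp2a2 and Tpm4 (limma adjusted p = 0.580, 0.193 and 0.930). It also lost those of Mrtfa (0.623), Kdr (0.1435) and Abcc9 (0.436), and gained Myod1 (0.0364) and Lum (0.0241). At 100 nM, besides losses given above, it lost Tpm4 (0.337), Anpep (0.113), Lum (0.0713), Ptprc (0.0916), Myod1 (0.123) and Dcn (0.119). With the cRNA yield as a covariate, 1 was higher at 100 nM, 2 at 10 nM and 0 between the doses (89 and 19 over all). Replicates 1, 2 and 6 alone gave 0 lower at 100 nM (144 and 56 over all; Mylk adjusted p = 0.0664), 0 higher and 1 lower at 10 nM (125 and 434), and 0 higher between the doses (127 and 7). Replicates 3, 4 and 5 alone gave 1 higher at 100 nM (Myh11, 0.0297), and comparisons with 10 nM could not be fitted there, as that set holds 1 such array. With the set as a term, 2 were higher and 2 lower at 100 nM, with 414 and 117 over all between the doses. These counts can be too high, as the sets came from the same values. With the replicate number as a replicate block, 2 were lower at 100 nM, among them Tagln (0.0369), and 374 were higher over all between the doses, while Mylk at 10 nM was not called (0.0999). Structure shared by number was not excluded, and the numbers were not used to pair arrays in the main fit. The mean of the tested Cald1 probe sets was -0.63 at 10 nM against control (0.00568), opposite in sign to the 0.10 of 1371969_at, since it includes 1368824_at. Itgb1 was 0.0284 at 100 nM against 10 nM with all 17 arrays (0.945). The causes were not tested. Weak signals near 2.11 limit what can be said of Cnn1, Actg2 and Lmod1.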

Other observations

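The arrays set aside by the submitters, 10 nM replicates 4 and 5, had labelled cRNA yields of 25.66 and 33.68 µg. Mylk was at 9.98 and 9.77 there and Tagln at 11.57 and 11.22, all below the lowest value of the same probe set on the 15 kept arrays. Cald1 1368824_at was at 8.52 and 9.98, so these 2 arrays fell on either side of the range of the kept arrays at 10 nM. Tpm1 1368724_a_at was at 13.34 and 13.11, also below all kept arrays.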
